A study of Mus musculus with 12 samples.

Results

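Trp53, which encodes the transcription factor p53, and 32 genes listed as its targets or regulators were followed in mouse 3T3-L1 cells. These are an established preadipocyte line that stores fat once differentiated. Being listed does not show that p53 controls a gene in these cells. The 33 genes were taken by symbol from a list drawn up with earlier results of these data known. Of these, 31 had a row among the 11022 genes of the deposited count table, and 29 were among the 9378 genes with enough counts for a test. Pmaip1 and Ddit4l had no row, and Aen and Perp had too few counts.

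The study measured RNA in 12 libraries, 3 in each of 4 groups of 3T3-L1 cells, which carry wild-type Trp53 per the labels. KO CM cells were differentiated with conditioned medium (CM) from p53 knockout WEP cells, a breast cancer line per the labels, and WT CM cells with that from p53 wild-type WEP cells. The regular cells were differentiated without conditioned medium, and the undifferentiated cells received no inducers. The KO CM, WT CM and regular cells were induced for 2 days with 2 µM rosiglitazone, 1 µM dexamethasone, 0.5 mM IBMX (isobutylmethylxanthine, which raises cyclic AMP) and 1 µg/mL insulin, kept 2 more days in insulin and then held in maintenance medium. Their serum was 10% fetal bovine serum, whereas undifferentiated cells grew in 10% calf serum. Filtered conditioned medium was added 1 to 1 at every step. Whether the inducer concentrations given for KO CM and WT CM cells hold before or after that mixing is not stated, so any dilution by the added medium and its secreted factors cannot be told apart in comparisons with regular cells. Serum and differentiation likewise cannot be told apart. Since only the WEP cells carried the knockout, Trp53 levels in the sequenced 3T3-L1 cells test no label. The labels name 1 cell line and do not say whether the replicates were separate cultures, so p-values cover only library-to-library spread, possibly technical.

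p53 is held low in unstressed cells by Mdm2, a ubiquitin ligase that marks it for destruction, and by Mdm4, which blocks its activity. DNA damage and other stresses release p53, which then binds a pair of half-sites in DNA and switches on genes for cell cycle arrest, apoptosis, DNA repair and metabolism. Mdm2 is itself such a target, so the pathway feeds back on itself. In fat tissue p53 has been studied for its effects on adipocyte differentiation, ageing and insulin response.

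Levels are given as CPM, that is counts of unique molecular identifiers (UMIs) relative to the library total, scaled between libraries by the trimmed mean of M values (TMM). A gene was taken to have changed when its Benjamini-Hochberg adjusted p, from edgeR's quasi-likelihood test over all 9378 genes, was under 0.05. Fold changes are on the log2 scale with their standard errors. Library totals were 987496 to 1376688 UMIs in KO CM, 1551876 to 2278126 in WT CM, 1101307 to 2589045 in regular and 1289754 to 1722617 in undifferentiated libraries. A group without a single UMI could still hold up to 3 counts, that is 0.943 CPM in KO CM, 0.567 in WT CM, 0.562 in regular and 0.586 in undifferentiated cells, by counting error alone. WT CM replicate 3 stood apart: over all genes its chi-square per degree of freedom was 5.54 and 5.24 against the other WT CM libraries, compared with 1.66 between those, and 1.38 to 2.54 within the other groups. The 14 adipocyte markers, all measured, summed to 11358 to 12812 CPM in KO CM, 22395 to 22833 in WT CM, 35362 to 37397 in regular and 208 to 238 in undifferentiated libraries. The 11 preadipocyte markers summed to 15745 to 16710.3 CPM in KO CM, 12452 to 13358 in WT CM, 6576 to 6609 in regular and 9816 to 10823 in undifferentiated libraries. Only 5 of 16 epithelial markers had a row, with sums of 17.8 to 30.7 CPM in KO CM, 22.03 to 33.4 in WT CM, 48.4 to 61.4 in regular and 5.67 to 9.65 in undifferentiated libraries, and Epcam and Cdh1 had none. Of 10 macrophage and leukocyte markers 3 had a row, Ptprc and Adgre1 not among them, and their sums stayed at 8.35 to 18.8 CPM over the 12 libraries. None of 6 endothelial markers had a row. In bulk RNA, fewer cells of a type and less RNA per cell cannot be told apart, and the part of cell mixture in any result below was not tested.

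The stretches below hold a match to a full p53 site in the promoters of members. They are shown so that the matching letters can be seen beside the levels. They come from RefSeq on GRCm38.p6, which gave promoters of 300 bases, from 250 before to 50 after the start site, for 25 of the 33 genes. A full site was counted where 2 p53 half-sites of 10 bases lay at most 13 bases apart, each with its central C and G, and at most 2 other letters off the consensus. The half-site consensus is its own reverse complement, so both strands were read at once. The capitals mark the half-sites of the pair with the fewest letters off. Each sequence runs 5′ to 3′ along the strand of the gene.
Cdkn1a: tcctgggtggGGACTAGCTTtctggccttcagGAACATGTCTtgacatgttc
Ccng1: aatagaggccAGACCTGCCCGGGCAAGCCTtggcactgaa
Gtse1: gggaaaccggGAGCAAGTTGGGGCTTGCCT
Gadd45a: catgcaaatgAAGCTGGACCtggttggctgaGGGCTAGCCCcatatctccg
Bax: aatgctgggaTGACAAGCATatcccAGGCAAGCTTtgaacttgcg
Sesn1: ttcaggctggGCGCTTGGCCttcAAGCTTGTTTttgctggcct

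The Cdkn1a stretch lies at chr17:29090896-29090947 on the plus strand, its site has no letter off the consensus and a spacer of 12 bases, and it runs from base -73 to -42 relative to the start site. The small letters that end this stretch are a further half-site, with 1 letter off. It abuts the second marked half-site, so that pair also meets the rule for a full site. In Ccng1 (chr11:40755452-40755491, minus strand) the half-sites abut, with 1 letter off, from -195 to -176. In Gtse1 (chr15:85859935-85859964, plus strand) they also abut, with 1 letter off, and straddle the start site from -1 to 19. The Gadd45a site (chr6:67037428-67037478, minus strand) has a spacer of 11 bases and 2 letters off, from -61 to -31, and that of Bax (chr7:45467080-45467124, minus strand) a spacer of 5 bases and 2 letters off, from -216 to -192. The Sesn1 site (chr10:41887243-41887285, plus strand) has a spacer of 3 bases and 2 letters off, from -186 to -164 relative to 1 of its start sites. Such a site was present in a promoter of 6 of the 25 members (24%), against 1272 of 27025 genes (4.71%). A half-site with every letter in the consensus was in 13 of 34 member promoters (38.2%), against 8.36% of all 32851 promoters. The list was made of genes named as p53 targets or regulators, so neither higher share is a result of these data. A match is a description of the letters and not of binding. A promoter without one says only that the letters are not in this window. The 6 genes with a site did not move as 1 block: against undifferentiated cells, regular cells had lower Cdkn1a, Ccng1, Gtse1, Gadd45a and Bax and higher Sesn1, as given below.

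**Figure D1:**
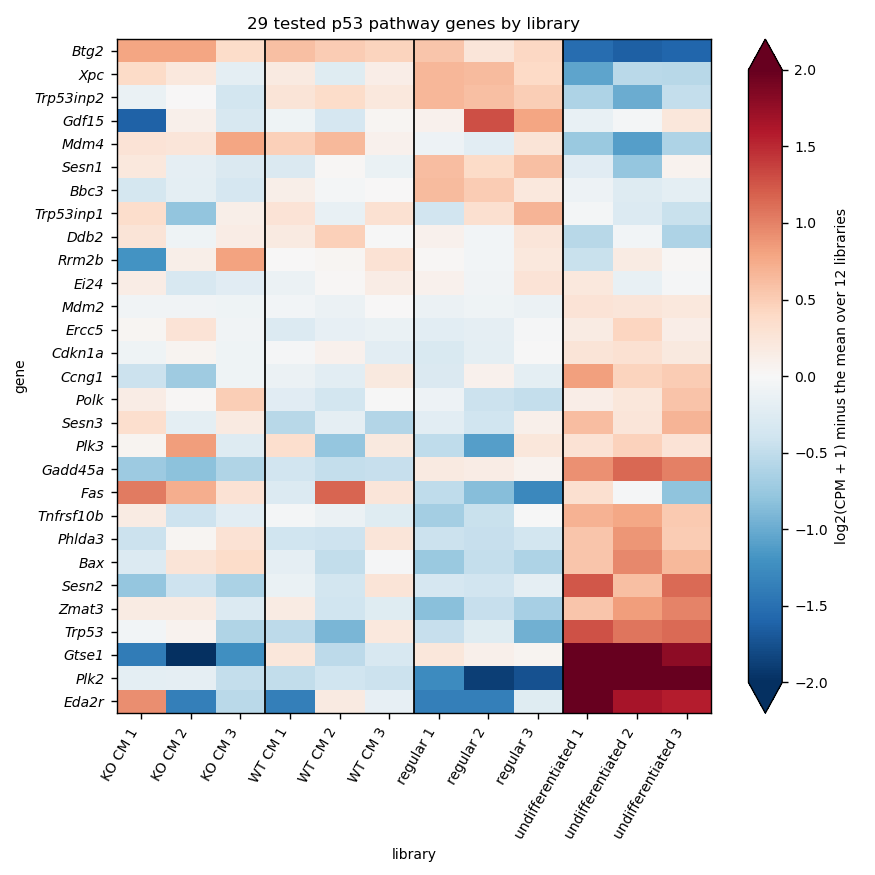
Level of the 29 tested genes in each of the 12 libraries, as log2(CPM + 1) minus the gene's mean over the 12 libraries. Red is above and blue below that mean, colours saturate at 2 in either direction, and genes are ordered by the change between regular and undifferentiated cells. Most of the lower rows are red in the 3 undifferentiated columns, whereas Btg2, Xpc and Trp53inp2 at the top are blue there.

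Regular differentiation was the comparison in which most of these genes moved. In regular cells, against undifferentiated cells, 7 of 29 were higher and 16 were lower (79.3%), where 57.6% of all tested genes changed, 29.6% higher and 28.0% lower. The median log2 change was -0.70 over the 29 genes and -0.01 over all 9378. Lower were Trp53, Mdm2, the cell cycle genes Cdkn1a, Ccng1, Plk2, Plk3, Gadd45a and Gtse1, the apoptosis genes Bax, Tnfrsf10b and Eda2r, and Zmat3, Phlda3, Sesn2, Sesn3 and Polk. Higher were Btg2, an arrest gene, Bbc3, an apoptosis gene, and Xpc, Trp53inp2, Gdf15, Mdm4 and Sesn1. With conditioned medium the counts against undifferentiated cells were 4 higher and 13 lower in KO CM (43.7% of all genes changed, 26.0% higher and 17.7% lower) and 5 higher and 16 lower in WT CM (48.6% of all genes changed, 27.9% higher and 20.7% lower). These comparisons share the undifferentiated libraries. The 16 lower genes include mitotic Gtse1, and the 30 mitotic and S phase genes listed beside it, 29 of them measured, summed to 454 to 489 CPM in KO CM, 530.3 to 606 in WT CM, 763 to 792 in regular and 1775 to 2057 in undifferentiated libraries.

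**Figure D2:**
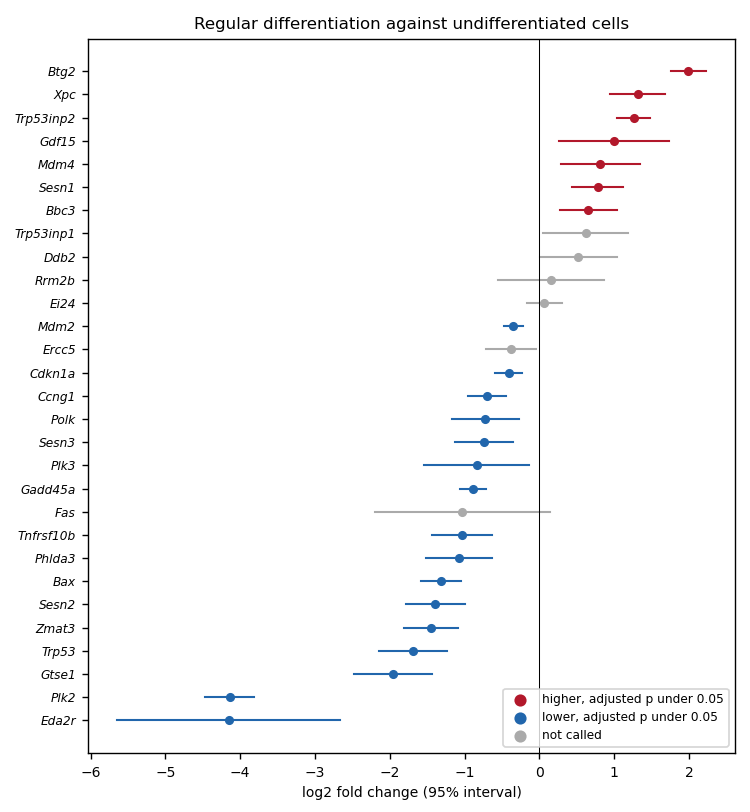
Log2 fold change of the 29 tested genes in regular against undifferentiated cells, with 95% intervals (points and bars, n = 3 libraries each). The 7 red genes were higher and the 16 blue genes lower at an adjusted p under 0.05, with Plk2 and Eda2r farthest to the left.

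Trp53 (chromosome 11, 69580359 to 69591873, plus strand, GRCm38) had 48.6, 53.4 and 32.95 CPM in KO CM, 34.8, 26.4 and 59.1 in WT CM, 36.6, 42.5 and 25.6 in regular and 124, 107 and 113 in undifferentiated libraries. Every differentiated library lay below every undifferentiated one, and the 3 differentiated groups overlapped. The log2 change was -1.69 ± 0.24 in regular (edgeR adjusted p = 1.87e-05), -1.38 ± 0.25 in KO CM (0.000378) and -1.45 ± 0.23 in WT CM (7.99e-05), each against undifferentiated cells. Among differentiated cells no difference in Trp53 passed the threshold: it was 0.08 ± 0.29 for KO CM against WT CM, 0.31 ± 0.29 for KO CM against regular and 0.23 ± 0.27 for WT CM against regular cells. The 95% interval of the first was -0.48 to 0.63. Trp53 in WT CM was highest in replicate 3, the library that stood apart. Without it the value was 0.53 for KO CM against WT CM (0.131) and -0.22 for WT CM against regular cells (0.485), still short of the threshold. Trp53 was not an abundant transcript, ranking 3189 to 5450 of 11022 in the differentiated libraries and 1436 to 1721 in undifferentiated ones. A processed pseudogene named for Trp53 is annotated, so the share of its reads that the authors' counting kept is uncertain.

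Mdm2 (chromosome 10, 117688875 to 117710758, minus strand), the negative regulator and target of p53, was by far the most abundant of these genes. It had 3654, 3644 and 3593 CPM in KO CM, 3703, 3542 and 3848 in WT CM, 3518, 3615 and 3521 in regular and 4631, 4522 and 4414 in undifferentiated libraries. Each 3′ UMI stands for 1 captured molecule whatever the transcript's length, and on that scale Mdm2 ranked 30 to 34 of 11022 genes in KO CM, 12 to 23 in WT CM, 11 to 14 in regular and 7 to 8 in undifferentiated libraries. It gave 66.2 to 67.5% of all counts of these genes in KO CM, 66.8 to 67.6% in WT CM, 65.3 to 66.7% in regular and 62.2 to 64.2% in undifferentiated libraries. Regular cells had less Mdm2 than undifferentiated cells, by a log2 change of -0.35 ± 0.07 (edgeR adjusted p = 1.9e-05), with no overlap of libraries. The change was -0.32 ± 0.07 in KO CM and -0.29 ± 0.07 in WT CM. Between differentiated groups Mdm2 varied little: -0.03 ± 0.07 for KO CM against WT CM, 0.03 ± 0.07 for KO CM against regular and 0.06 ± 0.07 for WT CM against regular cells. Because it dominates the sum, totals over these genes mostly reflect Mdm2.

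The gene is named for its discovery on double minute chromosomes of a derivative of 3T3 cells, so its neighbours were read as well. This choice was made after the level of Mdm2 was seen, and gene copy number was not measured. Of 11 other protein-coding genes with a start site within 500 kb, 8 had a row. Slc35e3, 35.6 kb away, ranked 210 by mean share, with 677 ± 130.4 CPM in KO CM, 763 ± 132 in WT CM, 948 ± 53.9 in regular and 252 ± 20.6 in undifferentiated libraries (SD, n = 3 each). Its log2 change in regular against undifferentiated cells was 1.91 ± 0.14 (adjusted p = 5.7e-09), the direction opposite to Mdm2. Rap1b ranked 796, Yeats4 3001 and Nup107 4614, and the others ranked 8479 or further down, among them Cpm, the gene of carboxypeptidase M, which had 8.56 ± 3.51 CPM in regular cells and no UMI in undifferentiated ones.

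**Figure D3:**
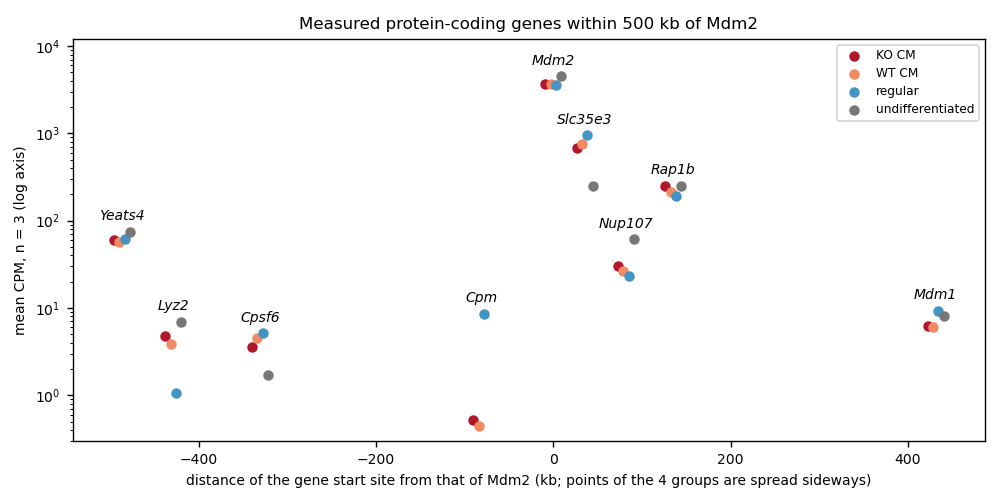
Mean CPM (log axis, n = 3 libraries) of Mdm2 and the 8 measured protein-coding genes with a start site within 500 kb, against the distance of their start sites from that of Mdm2. Mdm2 lies above all neighbours in each group, Slc35e3 is next, and the undifferentiated mean of Cpm is not drawn because it is 0.

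Mdm4, the relative of Mdm2 that inhibits p53 without degrading it, ran the other way. It had 21.8, 21.2 and 31.4 CPM in KO CM, 25.2, 28.3 and 18.95 in WT CM, 16.5, 15.2 and 21.5 in regular and 10.2, 7.79 and 11.3 in undifferentiated libraries. Regular cells exceeded undifferentiated cells by 0.81 ± 0.27 (edgeR adjusted p = 0.00878), or 1.76-fold, with all libraries higher. That call was lost without regular replicate 3 (adjusted p = 0.0655). KO CM exceeded undifferentiated cells by 1.34 ± 0.27 and WT CM by 1.25 ± 0.25. Against regular cells, the values were 0.53 ± 0.25 for KO CM (0.0811) and 0.43 ± 0.23 for WT CM (0.15), neither past the threshold. A pseudogene is also annotated for Mdm4.

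**Figure D4:**
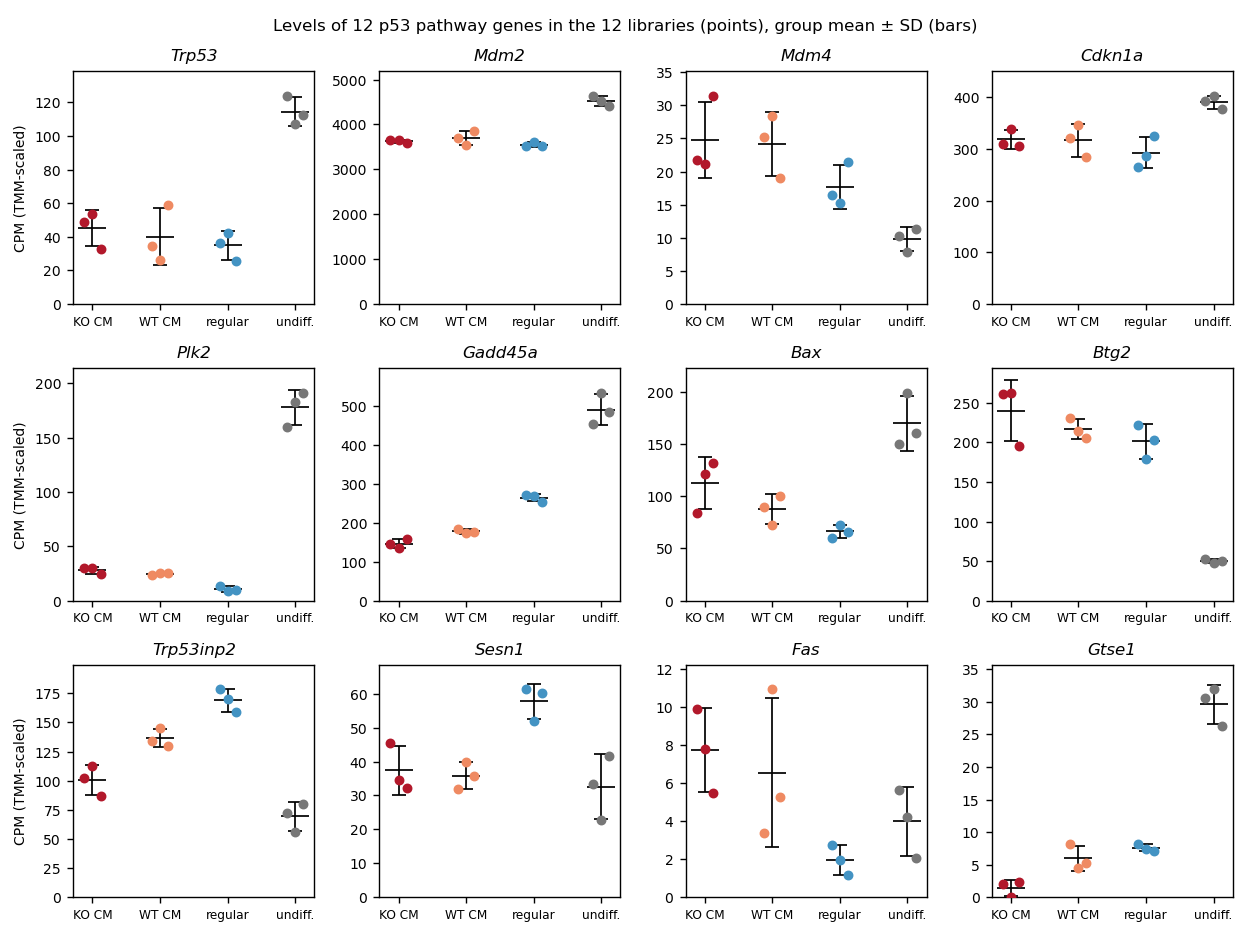
CPM of 12 members in each library (points), with the group mean and SD (bars, n = 3), groups from left to right KO CM, WT CM, regular and undifferentiated. Trp53, Mdm2, Cdkn1a, Plk2, Gadd45a, Bax and Gtse1 are highest in undifferentiated cells, and Btg2, Mdm4, Trp53inp2 and Sesn1 are not.

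Among the cell cycle genes, Cdkn1a, which encodes the CDK inhibitor p21 and is the classical target of p53, had 309, 339.6 and 307 CPM in KO CM, 321, 347 and 284 in WT CM, 266, 287 and 326 in regular and 392, 402 and 377 in undifferentiated libraries. All differentiated libraries lay below the undifferentiated ones, and the differentiated groups overlapped. The log2 change was -0.41 ± 0.09 in regular against undifferentiated cells (edgeR adjusted p = 0.000134), and 0.01 ± 0.09 in KO CM against WT CM, with a 95% interval of -0.18 to 0.19. Ccng1, encoding cyclin G1, had 77.3, 63.5 and 98.1 CPM in KO CM, 96.1, 89.5 and 119 in WT CM, 85.00, 111 and 90.7 in regular and 184, 142 and 149 in undifferentiated libraries, a change of -0.70 ± 0.13 in regular against undifferentiated cells. Its difference between KO CM and WT CM was -0.34 ± 0.15 (0.158). Without KO CM replicate 3 it passed the threshold in KO CM against WT CM (-0.54, adjusted p = 0.0385) and against regular cells (-0.46, 0.0287).

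Plk2, a kinase gene induced by p53 and by growth stimuli, fell most in regular against undifferentiated cells among members with more than 2 counts in each of these groups. It had 29.7, 30.1 and 24.3 CPM in KO CM, 23.9, 25.8 and 25.1 in WT CM, 13.7, 8.58 and 9.54 in regular and 160.0, 183 and 191 in undifferentiated libraries. No groups overlapped except KO CM with WT CM. The log2 change was -4.14 ± 0.17 in regular against undifferentiated cells (edgeR adjusted p = 1.41e-25). Both conditioned media went with more Plk2 than regular differentiation, by 1.46 ± 0.24 in KO CM (1.86e-06) and 1.31 ± 0.22 in WT CM (5.43e-06), yet levels stayed -2.68 and -2.83 on the log2 scale relative to undifferentiated cells. Its relative Plk3 had 9.91, 17.8 and 7.85 CPM in KO CM, 12.3, 5.15 and 11.02 in WT CM, 6.40, 3.90 and 11.3 in regular and 11.9, 13.5 and 11.8 in undifferentiated libraries. Its change in regular against undifferentiated cells, -0.84 ± 0.36 (0.042), was close to the threshold and was lost in 7 alternatives, among them without regular replicate 1 (0.0596) or 2 (0.323) and without undifferentiated replicate 2 (0.0917) or 3 (0.051).

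Gadd45a, a stress gene that acts in growth arrest and repair, had 146, 136 and 158 CPM in KO CM, 185, 173 and 175 in WT CM, 272, 267 and 254 in regular and 454, 534 and 484 in undifferentiated libraries. The 4 groups formed separate steps, with KO CM lowest and undifferentiated highest. Regular cells differed from undifferentiated cells by -0.89 ± 0.09 (edgeR adjusted p = 3.19e-12), and against regular cells KO CM differed by -0.85 ± 0.10 (4.52e-10) and WT CM by -0.57 ± 0.09 (1.41e-06). The difference of KO CM from WT CM, -0.27 ± 0.10, missed the threshold (0.0596) and passed it when libraries were scaled by total counts (0.0106). A gene on the other strand, E230016M11Rik, overlaps Gadd45a and also has a row, and whether counting used strand is not given in the sources used here.

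Btg2, an antiproliferative target of p53, moved opposite to most. It had 262, 263 and 196 CPM in KO CM, 231, 215 and 206 in WT CM, 222, 179 and 203 in regular and 52.2, 48.2 and 49.9 in undifferentiated libraries. Every differentiated library was more than 3 times above every undifferentiated one. The log2 change in regular against undifferentiated cells was 1.99 ± 0.12 (edgeR adjusted p = 3.86e-19). KO CM exceeded regular cells by 0.26 ± 0.10 (0.0407), with overlapping libraries, and that small difference fell short in 8 alternatives, among them without KO CM replicate 1 (0.191) or 2 (0.206) and without regular replicate 2 (0.283) or 3 (0.0671).

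Gtse1, a gene of mitotic cells whose product holds p53 down, had 1.98, 0 and 2.35 CPM in KO CM, 8.18, 4.51 and 5.29 in WT CM, 8.23, 7.41 and 7.16 in regular and 30.6, 31.9 and 26.2 in undifferentiated libraries. These rest on 2, 0 and 3 counts in KO CM and 12, 7 and 12 counts in WT CM libraries. KO CM libraries lay below all others and undifferentiated ones above all others. The change was -1.96 ± 0.27 in regular against undifferentiated cells (edgeR adjusted p = 2.34e-08), -2.20 ± 0.56 in KO CM against regular (0.00114) and -0.35 ± 0.36 in WT CM against regular cells (0.499). Of 26 tested mitotic and S phase genes, all were lower in regular than in undifferentiated cells (28.0% of all genes were). Against regular cells, 17 were lower in KO CM (21.0% of all genes) and 10 in WT CM (15.4% of all genes). In KO CM against WT CM, 3 were lower (6.62% of all genes). None was higher in these comparisons. The part of these 26 genes in the level of Gtse1 was not tested.

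Among the death genes, Bax, whose product permeabilizes mitochondria, had 84.2, 121 and 132 CPM in KO CM, 89.97, 72.1 and 101 in WT CM, 60.3, 72.9 and 66.2 in regular and 149.8, 199 and 160.4 in undifferentiated libraries. Undifferentiated libraries were the highest, KO CM libraries all exceeded regular ones, and WT CM overlapped KO CM and regular. The log2 change was -1.32 ± 0.14 in regular against undifferentiated cells (edgeR adjusted p = 3.35e-09), 0.74 ± 0.16 in KO CM against regular (0.000255) and 0.39 ± 0.15 in WT CM against regular cells (0.0475). The last was lost in 7 alternatives, among them without WT CM replicate 1 (0.101) or 3 (0.239) and without regular replicate 1 (0.14) or 3 (0.123).

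Bbc3, encoding the BH3-only protein PUMA, was highest in regular cells. It had 17.8, 20.04 and 18.1 CPM in KO CM, 25.2, 22.5 and 23.4 in WT CM, 36.6, 33.1 and 26.8 in regular and 21.6, 19.1 and 20.04 in undifferentiated libraries. Every regular library exceeded every other one. The change was 0.65 ± 0.19 in regular against undifferentiated cells (edgeR adjusted p = 0.0038) and -0.78 ± 0.22 in KO CM against regular cells (0.00328), while WT CM against regular was -0.43 ± 0.19 (0.0748).

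The death receptor genes differed among themselves. Fas had 9.91, 7.79 and 5.49 CPM in KO CM, 3.41, 10.9 and 5.29 in WT CM, 2.74, 1.95 and 1.19 in regular and 5.67, 4.25 and 2.06 in undifferentiated libraries. Both CM groups lay above regular cells without overlap, by 1.97 ± 0.57 in KO CM (edgeR adjusted p = 0.0043) and 1.74 ± 0.54 in WT CM (0.00939), on 24, 34 and 10 counts in the KO CM, WT CM and regular groups. The WT CM call was lost without WT CM replicate 2 (0.139) and without regular replicate 3 (0.0534). Tnfrsf10b, a TRAIL receptor gene, had 23.8, 15.6 and 18.1 CPM in KO CM, 20.5, 19.3 and 17.6 in WT CM, 12.8, 15.2 and 20.9 in regular and 34.6, 36.8 and 30.8 in undifferentiated libraries, and it passed the threshold only against undifferentiated cells (-1.04 ± 0.21 in regular). Eda2r, the receptor gene for ectodysplasin A2, had 5, 6, 2 and 41 counts in the KO CM, WT CM, regular and undifferentiated groups, summed over 3 libraries each. Per library these were 4, 0 and 1 in KO CM, 0, 3 and 3 in WT CM, 0, 0 and 2 in regular and 18, 10 and 13 in undifferentiated cells. Its ratio between regular and undifferentiated cells was 0.0468, with an exact 95% counting interval of 0.00548 to 0.180, which covers counting error only.

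Zmat3, a zinc finger gene whose RNA-binding product regulates splicing and mRNA stability, had 37.7, 37.9 and 27.5 CPM in KO CM, 37.5, 25.1 and 28.2 in WT CM, 18.3, 24.2 and 20.9 in regular and 49.9, 60.9 and 67.3 in undifferentiated libraries. The differentiated libraries were all below the undifferentiated ones, and the regular ones were lowest. The log2 change was -1.45 ± 0.18 in regular against undifferentiated cells (edgeR adjusted p = 3.66e-09) and 0.64 ± 0.22 in KO CM against regular cells (0.0152), the second lost without KO CM replicate 1 (0.0714) or 2 (0.066). Phlda3, whose product restrains Akt, had 239, 331 and 392 CPM in KO CM, 243, 242 and 381 in WT CM, 239, 233 and 249 in regular and 472, 594 and 461 in undifferentiated libraries. Here the CM libraries were uneven, and only the comparisons with undifferentiated cells passed the threshold (-1.08 ± 0.23 in regular, adjusted p = 0.00285). That of KO CM was lost without KO CM replicate 1 (0.101) or 2 (0.0939) and without undifferentiated replicate 2 (0.128), and that of WT CM without WT CM replicate 2 (0.0501) or undifferentiated replicate 2 (0.0523). KO CM against regular cells passed without robust estimation (0.0277) and when only those groups were fitted (0.0116), against 0.186 as reported. Aen, a nuclease gene, had 0, 1 and 2 counts in KO CM, 1, 1 and 0 in WT CM, 0, 3 and 1 in regular and 4, 3 and 6 in undifferentiated libraries. Perp, a gene of cell junctions and apoptosis, had 0, 0 and 1 counts in KO CM, 1, 0 and 2 in WT CM, 2, 7 and 6 in regular and 2, 0 and 0 in undifferentiated libraries. Neither was tested.

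The sestrin genes, whose products curb mTORC1 signalling and oxidative stress, split. Sesn1 had 45.6, 34.5 and 32.2 CPM in KO CM, 32.04, 39.9 and 35.7 in WT CM, 61.2, 51.8 and 60.2 in regular and 33.5, 22.7 and 41.6 in undifferentiated libraries. Regular libraries exceeded all others. The change was 0.78 ± 0.17 in regular against undifferentiated cells (edgeR adjusted p = 0.000181), -0.62 ± 0.19 in KO CM against regular (0.00657) and -0.67 ± 0.17 in WT CM against regular cells (0.00187). Against undifferentiated cells the values were 0.16 ± 0.20 in KO CM and 0.11 ± 0.19 in WT CM, neither past the threshold. The KO CM call was lost without KO CM replicate 3 (0.065). Sesn2 had 11.9, 15.6 and 13.3 CPM in KO CM, 19.1, 16.1 and 25.6 in WT CM, 16.5, 15.98 and 18.5 in regular and 51.6, 32.6 and 47.3 in undifferentiated libraries. KO CM libraries lay below WT CM libraries without overlap, but the difference of -0.62 ± 0.27 missed the threshold (0.146), and the change in regular against undifferentiated cells was -1.39 ± 0.20. Sesn3 had 32.7, 22.3 and 29.03 CPM in KO CM, 17.04, 22.5 and 16.8 in WT CM, 21.9, 19.1 and 27.4 in regular and 39.7, 30.5 and 41.6 in undifferentiated libraries. It fell in regular and WT CM cells against undifferentiated cells (-0.74 ± 0.20 in regular), and KO CM exceeded WT CM by 0.60 ± 0.23 without passing the threshold (0.0845).

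Gdf15, a secreted stress cytokine gene induced by p53 and by the integrated stress response, had 0.991, 5.57 and 3.92 CPM in KO CM, 4.77, 3.86 and 5.29 in WT CM, 5.48, 14.03 and 9.54 in regular and 4.54, 4.96 and 6.17 in undifferentiated libraries. WT CM libraries lay below regular ones, and KO CM overlapped them. The log2 change was -1.59 ± 0.47 in KO CM against regular (edgeR adjusted p = 0.00511), -1.15 ± 0.38 in WT CM against regular (0.0162) and 1.00 ± 0.38 in regular against undifferentiated cells (0.0218), and all were lost without regular replicate 2 (0.104, 0.299 and 0.383). The first was also lost without KO CM replicate 1 (0.0543), the second without WT CM replicate 2 (0.0644), and the third without undifferentiated replicate 1 (0.103) or 2 (0.0534). Of 20 tested integrated stress response genes, 3 were higher and 12 lower in KO CM against regular cells (75%, against 43.2% of all genes). In WT CM against regular cells 1 was higher and 12 lower (65%, against 32.6%). In KO CM against WT CM they were 2 and 6 (40%, against 12.5%). In regular against undifferentiated cells they were 6 and 11 (85%, against 57.6%). Among these 20 genes Psat1 differed by -1.23 ± 0.10 in KO CM against regular cells and Atf3 by 0.74 ± 0.18.

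Trp53inp2, which in fat cells and elsewhere acts in autophagy and as a nuclear receptor coactivator, was graded over all groups. It had 102, 113 and 87.1 CPM in KO CM, 134, 145 and 130.0 in WT CM, 178, 170.3 and 159 in regular and 72.6, 55.97 and 80.2 in undifferentiated libraries. No groups overlapped, and the order was undifferentiated, KO CM, WT CM and regular from low to high, as for the summed adipocyte markers. The change was 1.26 ± 0.11 in regular against undifferentiated cells (edgeR adjusted p = 4.15e-13), -0.76 ± 0.12 in KO CM against regular (5.7e-07), -0.31 ± 0.10 in WT CM against regular (0.0189) and -0.45 ± 0.12 in KO CM against WT CM (0.00728). The call for WT CM against regular cells was lost without WT CM replicate 3 (0.0735) and without regular replicate 1 (0.0679) or 2 (0.0718). KO CM exceeded undifferentiated cells by 0.50 ± 0.13 (0.00154), a call lost when libraries were scaled by total counts (0.22, adjusted p = 0.161). Its relative Trp53inp1, an antiproliferative p53 target, ranged over 6.68 to 15.9 CPM in KO CM, 10.9 to 15.4 in WT CM, 9.14 to 20.3 in regular and 8.74 to 11.9 in undifferentiated libraries, and no difference passed the threshold.

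DNA repair genes were mixed. Xpc, the damage sensor of nucleotide excision repair, had 46.6, 41.2 and 30.6 CPM in KO CM, 40.2, 29.6 and 38.8 in WT CM, 56.7, 55.4 and 47.1 in regular and 16.5, 24.1 and 23.6 in undifferentiated libraries. The regular libraries were highest and the undifferentiated ones lowest, with no overlap. The change was 1.31 ± 0.19 in regular against undifferentiated cells (edgeR adjusted p = 6.39e-08), -0.44 ± 0.18 in KO CM against regular (0.0476) and -0.54 ± 0.17 in WT CM against regular cells (0.0109). The KO CM call was lost in 7 alternatives, among them the replicate block (0.0508), KO CM replicate 2 (0.0668) or 3 (0.335) left out, and regular replicate 1 (0.0967) or 2 (0.143) left out. The WT CM call was lost without WT CM replicate 2 (0.0792) or regular replicate 2 (0.0665). Polk, a translesion polymerase gene, had 20.8, 18.9 and 26.7 CPM in KO CM, 15.7, 14.2 and 18.5 in WT CM, 17.4, 13.6 and 13.1 in regular and 20.4, 21.96 and 28.3 in undifferentiated libraries. It was lower in regular than in undifferentiated cells (-0.73 ± 0.23, adjusted p = 0.00603) and higher in KO CM than in regular cells (0.65 ± 0.25, adjusted p = 0.0337), the second lost in 5 alternatives, among them without KO CM replicate 3 (0.233) and without regular replicate 2 (0.117) or 3 (0.0934). Ercc5, a nuclease gene of excision repair, ranged over 32.2 to 41.2 CPM in KO CM, 28.0 to 30.9 in WT CM, 29.3 to 33.4 in regular and 37.0 to 46.1 in undifferentiated libraries. In WT CM against undifferentiated cells it was -0.42 ± 0.17 (adjusted p = 0.0364), a call lost in 5 alternatives: DESeq2 (0.0591), without WT CM replicate 1 (0.0971), 2 (0.0653) or 3 (0.0581), and without undifferentiated replicate 2 (0.158). Regular cells had a similar Ercc5 value against undifferentiated cells, -0.38 ± 0.17, which missed the threshold (0.054) with all libraries lower. That value passed in 6 alternatives, among them total counts (0.00611) and without undifferentiated replicate 1 (0.032) or 3 (0.027). KO CM differed from undifferentiated cells by -0.17 ± 0.18 (0.484), and passed with total counts (0.0404). Ddb2, a damage recognition gene that overlaps Acp2 on the other strand, differed by 0.66 ± 0.25 in WT CM against undifferentiated cells (adjusted p = 0.0281), with 14.5 to 18.8 CPM in KO CM, 15.4 to 21.9 in WT CM, 14.8 to 18.5 in regular and 9.77 to 14.9 in undifferentiated libraries. That call was lost in 6 alternatives: total counts (0.125), DESeq2 (0.124), only those groups fitted (0.0524), and without WT CM replicate 2 (0.13) or undifferentiated replicate 1 (0.137) or 3 (0.175). Neither Ercc5 nor Ddb2 was called in the authors' deposited table. Rrm2b, the p53-inducible ribonucleotide reductase subunit gene, and Ei24, an endoplasmic reticulum protein gene linked to autophagy, passed in none of the 6 comparisons: Rrm2b ranged over 2.97 to 14.9 CPM and Ei24 over 76.8 to 116 CPM in the 12 libraries. Ei24 was lower in KO CM than in regular cells with total counts (-0.33, adjusted p = 0.0441) and without KO CM replicate 1 (-0.37, 0.0422). With total counts it was also lower in KO CM than in undifferentiated cells (-0.43, 0.00801).

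The question of what conditioned medium did, set against regular differentiation, gave mixed directions. In KO CM, 6 of 29 members were higher and 7 lower than in regular cells (44.8%), where 43.2% of all genes changed, 22.2% higher and 21.0% lower. In WT CM, 3 were higher and 5 lower (27.6%), where 32.6% of all genes changed, 17.2% higher and 15.4% lower. Both shares are close to the background of all genes. Plk2, Fas and Bax were higher with either medium, and Polk, Zmat3 and Btg2 passed the threshold with KO CM. Gadd45a, Trp53inp2, Sesn1, Xpc and Gdf15 were lower with either medium, and Bbc3 and Gtse1 passed it with KO CM. Of the 5 genes called with KO CM only (Polk, Zmat3, Btg2, Bbc3 and Gtse1), Gtse1 alone differed between KO CM and WT CM by the test below. Trp53inp2, lower with either medium, was called there too. Whether the effect of KO CM and that of WT CM differ is answered by KO CM against WT CM, since both share the regular libraries. The median log2 change over the members was 0.14 in KO CM and 0.11 in WT CM, against 0.00 and 0.01 over all genes. Without regular replicate 2, 5 members were called in WT CM against regular cells.

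Directly compared, KO CM and WT CM cells differed in few of these genes. None of 29 was higher and 2 were lower in KO CM (6.90%), where 12.5% of all genes changed, 5.86% higher and 6.62% lower. These were Trp53inp2 (-0.45 ± 0.12, edgeR adjusted p = 0.00728) and Gtse1 (-1.85 ± 0.59, adjusted p = 0.0291). Neither held in every alternative: Trp53inp2 was lost without KO CM replicate 3 (0.116), and Gtse1 without KO CM replicate 1 (0.0542) or 2 (0.144), without WT CM replicate 1 (0.103) and in DESeq2 (0.0911). Bax passed without KO CM replicate 1 (0.0102) or without WT CM replicate 3 (0.0365), against 0.131 with all libraries. The count of members called was 1 without KO CM replicate 2 or without WT CM replicate 1. The summed adipocyte markers, lower in KO CM than in WT CM, and the summed mitotic genes, likewise lower, moved in the same comparison as Trp53inp2 and Gtse1, and their part in these results was not tested. Intervals of the log2 difference between KO CM and WT CM were narrow for some well counted members. They were -0.16 to 0.11 for Mdm2, -0.18 to 0.19 for Cdkn1a and -0.06 to 0.34 for Btg2. That of Phlda3, also well counted, was wider, at -0.30 to 0.60. The intervals lay wholly below no change for Gadd45a (-0.47 to -0.08) and Ccng1 (-0.64 to -0.04), and wholly above it for Bax (0.06 to 0.65). Still, Gadd45a, Ccng1 and Bax missed the threshold for adjusted p with all libraries.

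**Figure D5:**
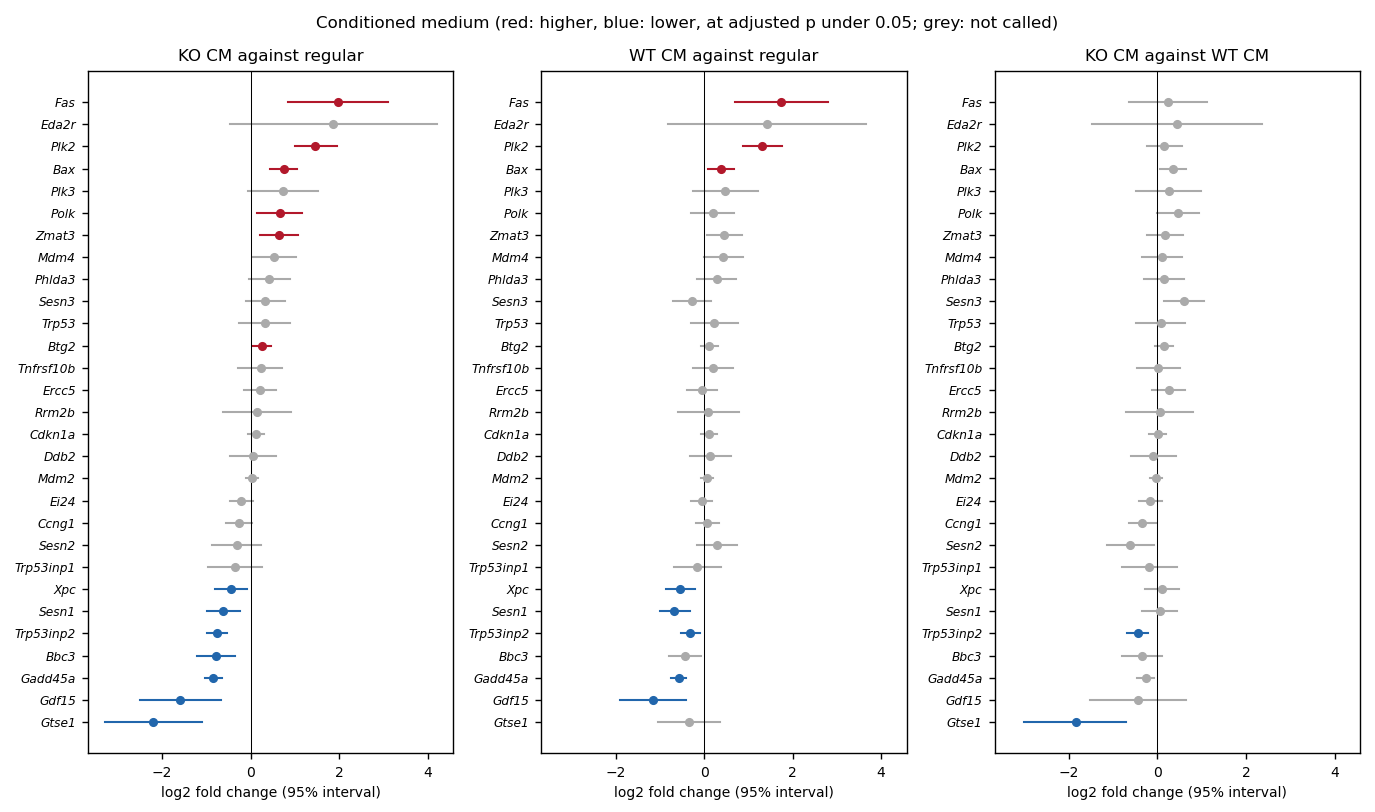
Log2 fold changes with 95% intervals of the 29 tested genes for KO CM against regular, WT CM against regular and KO CM against WT CM (n = 3 libraries each). Red and blue genes were higher and lower at an adjusted p under 0.05: 6 and 7 in the left panel, 3 and 5 in the middle and 0 and 2 on the right.

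Ordered by group means, the undifferentiated group was highest for 17 of the 29 genes (58.6%), against 32.2% of all tested genes. Regular cells were highest for 7, KO CM for 4 and WT CM for 1. The most frequent order, held by 10 genes, was undifferentiated, KO CM, WT CM and regular from high to low. For that order, and for genes highest in a differentiated group, the share of all tested genes was not computed. Whether those counts are particular to these genes cannot be said. The WT CM mean lay between those of KO CM and regular cells for 21 of 29 genes (72.4%), against 61.5% of all tested genes, and the KO CM mean lay between the others for 4 (13.8%), against 22.5%. Without KO CM replicate 2 the KO CM count was 7. Many of these neighbours did not differ beyond their spread, as the tests above show. Of the 29 genes, 26 passed the threshold in at least 1 of the 6 comparisons. The matching share of all tested genes was not computed, so whether 26 is many cannot be said. In regular against undifferentiated cells alone, 57.6% of all tested genes passed.

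Genes that act on p53 were read from a list of 40 regulators and partners, of which 32 were tested. In regular against undifferentiated cells 5 were higher and 7 lower (37.5%, against 57.6% of all genes), and in KO CM against regular cells 5 and 4 (28.1%, against 43.2%). In WT CM against regular cells 4 were higher and 3 lower (21.9%, against 32.6%), and in KO CM against WT CM 2 and 2 (12.5%, as for all genes). The median log2 change was -0.24, 0.01, -0.01 and 0.05 in that order, against -0.01, 0.00, 0.01 and 0.01 over all genes. Cdkn2a, the locus of p16 and of Arf, which blocks Mdm2, averaged 286 CPM in KO CM and 181 CPM in WT CM (0.66 ± 0.10, edgeR adjusted p = 7.75e-06) and 156 CPM in regular cells (KO CM against regular 0.90 ± 0.11). Counts per gene do not separate the transcripts of p16 and of Arf. Trp63, a paralog of Trp53, averaged 24.95 CPM in KO CM and 15.5 CPM in WT CM, against 4.13 CPM in regular cells (2.49 ± 0.37 and 1.84 ± 0.38). Pml, the organizer of nuclear bodies that recruit p53, averaged 22.2 CPM in KO CM and 13.5 CPM in WT CM, against 6.16 CPM in regular cells. The methyltransferase genes Prmt5 and Kmt5a, whose products modify p53, were lower in KO CM than in WT CM (-0.59 ± 0.13 and -0.42 ± 0.11), and Wrap53, the neighbour of Trp53, was higher (1.15 ± 0.36). Hipk2, a kinase gene, was higher (3.46 ± 0.56) and the mitotic kinase gene Aurka lower (-1.86 ± 0.22) in regular than in undifferentiated cells.

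A list of 60 further p53 targets, 46 of them tested, gave 10 higher and 21 lower genes in regular against undifferentiated cells (67.4%, against 57.6% of all genes), with a median log2 change of -0.41, against -0.01 over all genes. In KO CM against regular cells 18 were higher and 7 lower (54.4%, against 43.2%), with a median of 0.28, against 0.00. In WT CM against regular cells 15 were higher and 5 lower (43.5%, against 32.6%), with a median of 0.25, against 0.01. In KO CM against WT CM 7 were higher and 2 lower (19.6%, against 12.5%), with a median of 0.05, against 0.01. Thbs1, the gene of the matrix protein thrombospondin 1, averaged 803 CPM in KO CM and 507 CPM in WT CM, against 59.2 CPM in regular cells, with log2 changes of 0.66 ± 0.09 for KO CM against WT CM and 3.78 ± 0.11 for KO CM against regular (edgeR adjusted p = 1.4e-30). Vdr, the vitamin D receptor gene, averaged 128 CPM in KO CM and 71.97 CPM in WT CM, against 20.9 CPM in regular cells. Fhl2, a LIM-domain cofactor gene, averaged 115 CPM in KO CM and 78.1 CPM in WT CM, against 24.3 CPM in regular cells. Cmbl, a hydrolase gene, ran the other way, with 21.6 CPM in KO CM, 64.5 in WT CM and 144 in regular cells, and so did Tob1, an antiproliferative gene, with 216 CPM in KO CM, 354 in WT CM and 515 in regular cells. These lists hold genes regulated by many inputs beside p53.

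The authors' deposited table of comparisons gave, at an adjusted p under 0.05, 6 higher and 15 lower members for regular against undifferentiated cells, 3 and 6 for KO CM against regular, 2 and 4 for WT CM against regular, and 0 and 1 for KO CM against WT CM, once its signs were turned to the same direction. Each of those calls was also made here in the same direction. Called here and not in the authors' deposited table were Gdf15 and Plk3 in regular against undifferentiated cells, Btg2, Zmat3, Polk and Xpc in KO CM against regular, Bax and Gdf15 in WT CM against regular, and Gtse1 in KO CM against WT CM.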

How the data were processed

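RNA of 12 libraries of 3T3-L1 cells was measured by MARS-seq, which counts UMIs at transcript 3′ ends from 30 ng of RNA, per the labels' protocols. Per the submitters' processing notes, reads were handled with HTSeq, cutadapt and DESeq2 on mm10; versions, aligner and annotation are not given in the sources used here. The count columns used are raw UMIs of each gene and library, as the authors deposited them without scaling, per the column headers. The authors' own log2 fold changes and adjusted p-values for 6 comparisons serve only for comparison; the normalized and transformed values, 24 columns, were left out.

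Tests were run with edgeR 4.0.16 under R 4.3.3 (filterByExpr by group, TMM, robust quasi-likelihood fit of all 12 libraries with 1 coefficient per group, Benjamini-Hochberg adjustment over 9378 genes, threshold 0.05). Standard errors are of the log2 fold change and intervals are 1.96 of them. The common biological coefficient of variation was 9.38%. The fit was tested on simulated data. Gene positions are from GENCODE on GRCm38.

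Members and lists were chosen with earlier results of these data known. All members in the table are reported, with each library's value for those past the threshold in at least 1 of the 4 comparisons among KO CM, WT CM and regular cells and of regular with undifferentiated cells; from other lists, genes with the smallest adjusted p were taken. The labels do not say that replicate numbers mark a shared batch, so the tests have no block. Deviations of libraries from different groups correlated at -0.063 to 0.056 for the same number and -0.056 to 0.055 for different numbers. Alternatives were other scalings, no filter, no robust estimation, DESeq2 1.42.0, only the groups compared, a replicate block and leaving out each library.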

Additional observations from a re-analysis of the deposited data

How the results depend on the processing

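No member past the threshold changed direction under any alternative that was run. Calls held in all alternatives where the gene was tested for 0 of 2 members in KO CM against WT CM, 7 of 13 in KO CM against regular, 3 of 8 in WT CM against regular (Plk2, Sesn1 and Gadd45a), 20 of 23 in regular against undifferentiated, 15 of 17 in KO CM against undifferentiated and 17 of 21 in WT CM against undifferentiated cells. Members called in KO CM against WT CM fell to 1 with DESeq2, whose Wald test called 788 genes where edgeR called 1171, and to 1 of 26 tested when only the groups compared were fitted, where Gtse1 had too few counts to be tested. With 1 library left out at a time, members called ranged over 1 to 3 in KO CM against WT CM, 9 to 13 in KO CM against regular, 5 to 7 in WT CM against regular and 21 to 23 in regular against undifferentiated cells. All genes called in KO CM against WT CM ranged over 756 to 1058, the lowest without KO CM replicate 3. KO CM means between those of WT CM and regular cells numbered 3 to 7, the highest without KO CM replicate 2, and WT CM means between the others 18 to 21. With the replicate block, calls numbered 1217 genes and 2 members in KO CM against WT CM, 4058 and 12 in KO CM against regular, 3042 and 8 in WT CM against regular and 5373 and 22 in regular against undifferentiated cells. It changed no member call other than those of Xpc in KO CM against regular and Plk3 in regular against undifferentiated cells. The block rests only on shared numbers: 5 of 12 libraries correlated best with their own number. Scaling by total counts lowered the share of higher calls to 30.3% (47.0% with TMM) in KO CM against WT CM, 40.7% (51.4%) in KO CM against regular and 40.3% (51.3%) in regular against undifferentiated cells, and moved the median of all genes to -0.07, -0.12 and -0.17. Against undifferentiated cells, the share fell to 33.08% (59.55%) in KO CM and 38.77% (57.36%) in WT CM. The medians there moved from 0.08 to -0.20 and from 0.06 to -0.14. In that KO CM comparison Trp53inp2 was lost, and Sesn3, Ei24 and Ercc5 were gained. WT CM against regular cells shifted less, to 47.80% (52.83%). Depth limits Eda2r, Gtse1, Fas, Gdf15, Aen and Perp, which rest on few counts.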
